A study of Mus musculus with 24 samples.

Results

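Chemokines are small secreted proteins that attract leukocytes, and their receptors are G-protein-coupled receptors on the cells that respond. The genes described here are those whose array symbol begins with Ccl, Cxcl, Ccr or Cxcr and a number, together with Cx3cl1, Cx3cr1, Xcl1 and Xcr1. The rule found 54 genes on 79 probes, among 19053 named genes and 45281 probes, and a gene with several probes was read from the one with the highest 24-array mean. Of the 54 genes, 36 encode ligands and 18 encode receptors. Illumina arrays measured RNA from white adipose tissue (WAT) and brown adipose tissue (BAT), 4 for each tissue and diet, and all mice were C57Bl/6J males. A low-fat diet served as the control, and the other 2 diets were high in fat (HFD), one based on corn oil and the other supplying the marine omega-3 fatty acids eicosapentaenoic and docosahexaenoic acid (EPA/DHA). The mice arrayed had been picked as typical of their diet group, judged by weight and by blood lipids (triglyceride and cholesterol). Nothing in the labels says more about how the mice of a group are related, so p-values measure the spread between these mice. The labels give neither the age of the mice, the length of feeding nor the WAT depot, and they do not say whether equally numbered BAT and WAT arrays come from 1 mouse. The extraction text names skeletal muscle although the tissue labels name adipose tissue.

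In adipose tissue, chemokines come from adipocytes, stromal and endothelial cells and resident macrophages, and they steer monocytes, T cells, B cells, eosinophils and neutrophils into the tissue. The CC ligands that bind Ccr2 are best known for bringing in monocytes as fat expands, CXC ligands such as Cxcl1 and Cxcl2 attract neutrophils, and Cxcl9 and Cxcl10 are induced by interferon and attract T cells through Cxcr3. Cxcl12, Cxcl13 and Cxcl14 are made at rest by stromal cells, with Cxcl12 acting through Cxcr4 and Cxcl13 through Cxcr5.

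The deposited values are on a log2 scale and ran from 6.95 to 14.79, so differences are in log2 units. In each comparison the sign is that of the first group named minus the second. A ± after a difference is its standard error, and a ± after a mean is the SD of 4 arrays. Values listed for a group are those of replicates 1 to 4. Markers of both fat types followed the tissue labels. The 6 brown adipocyte markers averaged 10.79 to 12.05 on the BAT arrays and 7.46 to 9.41 on the WAT arrays, while the 6 adipocyte markers averaged 10.54 or more on all arrays. Ucp1, the uncoupling protein of brown fat, stood at 9.38 on WAT corn-oil replicate 4 and 10.63 on WAT EPA/DHA replicate 2, and between 7.08 and 8.02 on the other WAT arrays. Liver markers varied widely in WAT, from a mean of 9.56 to 12.41, as did skeletal muscle markers in BAT, from 7.75 to 12.28. A filter kept genes whose mean over the 12 arrays of a tissue exceeded the 40th percentile of all probes, 7.11 in both tissues, and 13349 genes passed in WAT and 13400 in BAT.

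The ligands carried nearly all of the measurable signal. In WAT 29 of 36 ligands and 9 of 18 receptors passed the filter, and in BAT 26 ligands and 8 receptors did. No array exceeded 7.5 for 17 of the 18 receptors, against 12 of the 36 ligands. The exception among the receptors was Cxcr4, the Cxcl12 receptor, which ran from 7.3 to 7.63 in WAT and from 7.09 to 7.26 in BAT. Ccr2, the monocyte receptor for Ccl2 and Ccl7, ran from 7.14 to 7.3 in WAT and from 7.10 to 7.26 in BAT, and Cx3cr1, the receptor for fractalkine, from 7.02 to 7.26 and from 7.09 to 7.20. The 15 genes that passed in neither tissue were the ligands Ccl1, Ccl20, Ccl26, Ccl28, Cxcl3, Cxcl11 and Cxcl15 and the receptors Ccr1, Ccr1l1, Ccr8, Ccr9, Ccr10, Cxcr1, Cxcr2 and Xcr1. Their diet differences were not tested.

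The 10 members with the highest WAT means were Cxcl12 (11.03), Ccl9 (10.97), Ccl11 (10.71), Cxcl9 (10.46), Ccl8 (9.10), Ccl27a (8.71), Ccl7 (8.54), Ccl6 (8.45), Cxcl13 (8.16) and Cxcl14 (8.03). In BAT they were Cxcl12 (10.45), Ccl27a (9.80), Cxcl9 (9.15), Ccl11 (8.85), Ccl21a (8.18), Cxcl14 (8.14), Ccl9 (8.05), Ccl25 (7.95), Ccl21c (7.77) and Ccl4 (7.58). Probes differ in how brightly they report a given amount of RNA, so these means name the genes with clear signal and do not rank their transcripts. Both lists hold the stromal ligands Cxcl12 and Cxcl14, the eosinophil attractant Ccl11 (eotaxin) and the interferon-inducible Cxcl9.

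The first comparison asked how corn-oil HFD feeding changed WAT relative to the low-fat diet. Among the ligands, 2 genes of the monocyte-attracting CC group rose, Ccl8 and Ccl7, and no member fell. That is 2 of the 38 members tested, while 3.87% of all genes passed in either direction, 2.05% higher and 1.82% lower. A call here is an adjusted p below 0.05 from limma, with the Benjamini-Hochberg adjustment over all probes that passed the filter (27168 in WAT). All 4 monocyte-attracting ligands had positive differences, with a median of 0.83, where 48.5% of all genes had positive differences. All 4 were also positive in WAT on EPA/DHA against low-fat (median 0.22) and in each BAT diet comparison, where no member was called. The BAT medians were 0.05 for corn oil against low-fat, 0.08 for EPA/DHA against corn oil and 0.14 for EPA/DHA against low-fat. In bulk tissue, fewer or more cells of a type cannot be told apart from less or more RNA per cell.

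Ccl8, a CC ligand related to the monocyte attractant Ccl2 that in mice also acts on Ccr8, read 7.65, 8.72, 8.54 and 8.17 in low-fat WAT. It read 9.26, 10.46, 9.92 and 10.74 on corn oil, all above the highest low-fat value. The mean moved from 8.27 ± 0.47 to 10.10 ± 0.66, a rise of 1.83 ± 0.35 (limma adjusted p = 0.0247). Ccl7, also a monocyte attractant that binds Ccr2, read 7.77, 8.25, 8.27 and 7.94 on low-fat and 9.75, 8.80, 9.72 and 8.98 on corn oil, again without overlap. It rose by 1.25 ± 0.27 (limma adjusted p = 0.0373), and its second probe gave 1.23 ± 0.27 (adjusted p = 0.0363). The 2 genes were not highest on the same corn-oil arrays: Ccl8 peaked on replicates 2 and 4, Ccl7 on replicates 1 and 3.

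Both calls depended on single arrays, while their direction did not. The adjusted p of Ccl8 passed 0.05 without low-fat replicate 1 (0.0636) or 4 (0.0683), and without corn-oil replicate 2 (0.0613), 3 (0.0509) or 4 (0.0629). For Ccl7 it did so without low-fat replicate 1 (0.0971), 2 (0.0597), 3 (0.0607) or 4 (0.106), and without corn-oil replicate 1 (0.0954), 3 (0.0921) or 4 (0.0609). Over these fits the rise stayed between 1.61 and 2.11 for Ccl8 and between 1.11 and 1.42 for Ccl7. Without the 2 WAT arrays with Ucp1 above 9, an alternative chosen after seeing the data, Ccl8 differed by 1.61 (adjusted p = 0.0791) and Ccl7 by 1.36 (adjusted p = 0.0778).

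The other genes of the same chromosomal cluster had positive differences that did not pass. RefSeq lists Ccl2, Ccl7, Ccl11, Ccl12, Ccl8 and Ccl1 as consecutive coding genes on mouse chromosome 11, where 14 of the 54 members lie. Ccl2, the main Ccr2 ligand, read 7.18, 7.26, 7.28 and 7.24 on low-fat and 7.83, 7.45, 7.89 and 7.40 on corn oil. These groups did not overlap, and corn-oil replicates 1 and 3, the arrays with the highest Ccl7, were also highest for Ccl2. The difference was 0.40 ± 0.11 (limma adjusted p = 0.0969). Ccl12, another Ccr2 ligand of the cluster, read 7.21 to 7.29 on low-fat and 7.65, 7.41, 7.45 and 7.43 on corn oil (0.23 ± 0.13, adjusted p = 0.434). Ccl11 moved from 10.65 ± 0.20 to 10.88 ± 0.17 (0.23 ± 0.14, adjusted p = 0.46), with overlapping groups, and Ccl1 stayed below the filter.

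A second row of neighbours on chromosome 11 is Ccl5, Ccl9, Ccl6, Ccl3 and Ccl4. Ccl9 and Ccl6, ligands of Ccr1 that macrophages and other myeloid cells express in rodents, were both higher on all 4 corn-oil arrays than on any low-fat array, without passing the test. Ccl9 read 10.67, 10.48, 10.998 and 10.60 on low-fat and 11.12, 11.63, 11.28 and 11.89 on corn oil (0.79 ± 0.25, limma adjusted p = 0.124). Ccl6 read 8.11, 8.22, 8.37 and 8.40 on low-fat and 8.54, 8.99, 8.56 and 8.85 on corn oil (0.46 ± 0.14, adjusted p = 0.115). For both, corn-oil replicates 2 and 4 were the highest, as for Ccl8. Ccl5, which attracts T cells and monocytes, moved from 7.86 ± 0.24 to 8.19 ± 0.32 (0.33 ± 0.18, adjusted p = 0.427), and the groups overlapped.

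The sequences upstream of these genes are shown because Ccl8, Ccl12, Ccl9 and Ccl6 are neighbours whose values can be compared, and Ccl27a because it was called in the next comparison. Each is the 250 bases before a RefSeq transcript start in GRCm38.p6, 5′ to 3′ on the gene's strand, with motif matches in capitals. RefSeq promoters matched 40 of the 54 members; Ccl2, Ccl7 and Ccl11 are among the others. The motifs searched on both strands were the kappaB consensus of NF-kappaB, the AP-1 site TGANTCA, the interferon-gamma element GAS (TTCNNNGAA), the core of the interferon-stimulated element ISRE (GAAA, any 2 bases, GAAA) and the TATA box TATAAA, the last added after these sequences were seen.

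Ccl8, chr11:82114935-82115184, plus strand: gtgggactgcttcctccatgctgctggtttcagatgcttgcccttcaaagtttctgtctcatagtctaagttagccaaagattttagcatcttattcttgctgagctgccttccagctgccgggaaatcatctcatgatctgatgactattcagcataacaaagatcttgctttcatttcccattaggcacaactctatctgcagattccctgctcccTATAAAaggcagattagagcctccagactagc
Ccl12, chr11:82101595-82101844, plus strand: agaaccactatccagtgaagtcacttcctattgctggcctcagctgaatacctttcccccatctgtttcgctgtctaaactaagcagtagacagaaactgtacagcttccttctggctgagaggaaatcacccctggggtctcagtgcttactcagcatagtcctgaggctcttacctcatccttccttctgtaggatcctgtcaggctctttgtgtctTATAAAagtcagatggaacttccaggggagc
Ccl9, chr11:83578637-83578886, minus strand: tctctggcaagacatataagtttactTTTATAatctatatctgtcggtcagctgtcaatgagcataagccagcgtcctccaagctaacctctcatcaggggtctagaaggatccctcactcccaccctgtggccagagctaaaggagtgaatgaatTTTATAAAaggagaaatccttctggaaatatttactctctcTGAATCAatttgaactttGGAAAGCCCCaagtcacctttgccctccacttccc
Ccl6, chr11:83593088-83593337, minus strand: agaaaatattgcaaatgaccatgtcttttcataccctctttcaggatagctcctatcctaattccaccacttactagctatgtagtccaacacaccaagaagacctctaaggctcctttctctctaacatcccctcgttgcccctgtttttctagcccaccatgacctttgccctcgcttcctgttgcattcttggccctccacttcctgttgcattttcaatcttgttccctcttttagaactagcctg
Ccl27a, chr4:41770213-41770462, minus strand: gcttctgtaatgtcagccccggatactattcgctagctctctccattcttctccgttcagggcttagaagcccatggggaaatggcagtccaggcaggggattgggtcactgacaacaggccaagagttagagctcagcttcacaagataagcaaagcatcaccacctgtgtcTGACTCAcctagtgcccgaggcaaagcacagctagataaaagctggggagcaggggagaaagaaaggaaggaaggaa

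Ccl8 and Ccl12 each hold a TATA box that begins 32 and 31 bases before the start, and none of the other motifs. Ccl9 holds a kappaB match 35 bases and an AP-1 match 53 bases before its start, beside TATAAA matches that begin 224, 94 and 92 bases before it, and Ccl6 holds none of the motifs. Ccl27a, shown at 1 of its 3 RefSeq starts, holds an AP-1 match 77 bases before it, and its other starts hold none of the motifs. The 40 members have 44 promoters between them, of which 10 held a kappaB match, 5 an AP-1 match, 4 a GAS match, 3 an ISRE core and 12 a TATA box. Over all 32851 RefSeq promoters the shares with a match were 7.25%, 6.75%, 7.02%, 2.98% and 12.4%. The kappaB matches lay in Ccl1, Ccl9, Ccl20, Ccr1, Ccr3, Ccr6, Cxcl1, Cxcl2, Cxcl3 and Cxcl10, of which Ccl9, Cxcl1, Cxcl2, Cxcl10 and Ccr6 passed the filter in WAT. A match is a string of letters in this window, and no binding was measured.

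**Figure D1:**
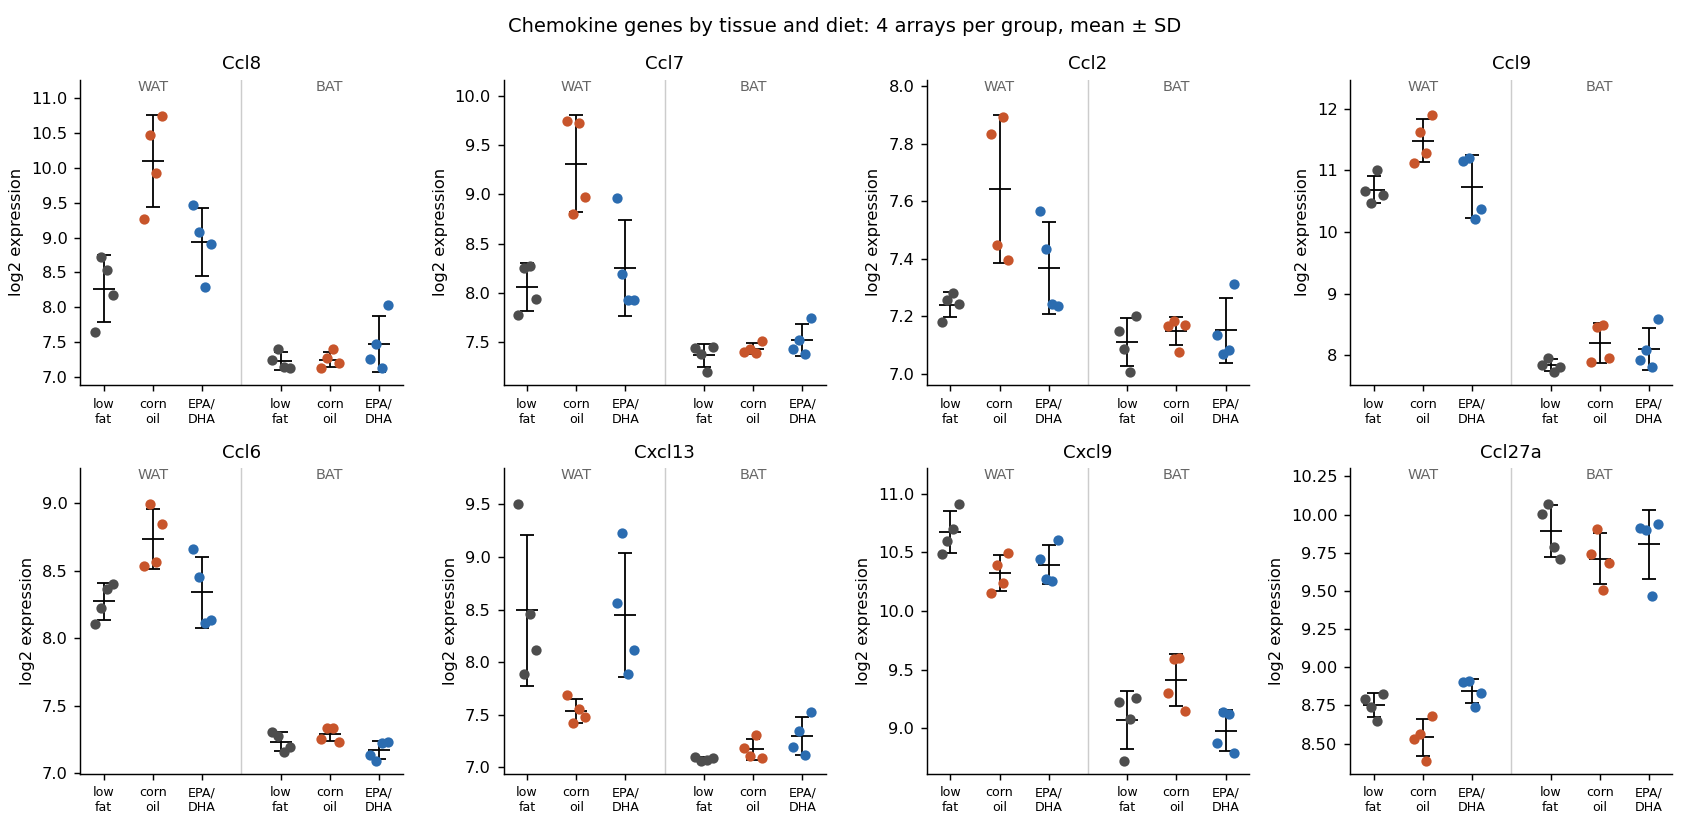
Log2 expression (vertical axis, a separate scale for each gene) of 8 ligands on the 24 arrays, by tissue and diet; points are arrays, and the bars are the group mean ± SD (n = 4). Ccl8 and Ccl7 lie higher on the 4 WAT corn-oil arrays than on the low-fat arrays, Cxcl13 lies lower there, and Ccl27a is the only one of the 8 with its BAT values above its WAT values.

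Other ligands leaned the opposite way in corn-oil WAT. Cxcl13, the B cell attractant that acts through Cxcr5, read 9.51, 7.89, 8.45 and 8.12 on low-fat and 7.69, 7.42, 7.56 and 7.48 on corn oil. The groups did not overlap, low-fat replicate 1 was the highest array, and the difference of -0.96 ± 0.35 did not pass (limma adjusted p = 0.192). Cxcl9 read 10.49, 10.60, 10.70 and 10.91 on low-fat and 10.16, 10.40, 10.24 and 10.50 on corn oil, with the lowest low-fat array just inside the corn-oil range (-0.35 ± 0.11, adjusted p = 0.122). Ccl27a, a ligand of Ccr10 best known in skin, read 8.79, 8.74, 8.65 and 8.83 on low-fat and 8.53, 8.56, 8.39 and 8.68 on corn oil (-0.21 ± 0.06, adjusted p = 0.107). Its second probe gave -0.04 ± 0.03 (adjusted p = 0.67). Ccl27a has near-identical copies in the mouse genome and overlaps Il11ra1, so the gene behind its probe is uncertain.

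The remaining ligand groups held no call in WAT on corn oil against low-fat. All 7 homeostatic and dendritic or T cell attracting CC ligands tested stayed below the threshold, between -0.21 and 0.14. Ccl19, which with Ccl21a guides Ccr7-bearing cells, was highest among them at 0.14 ± 0.05 (limma adjusted p = 0.152), from 7.31 ± 0.05 to 7.45 ± 0.04. The 2 neutrophil attractants tested differed by 0.20 ± 0.19 (Cxcl1) and -0.21 ± 0.19 (Cxcl2), and Cxcl2 was high on low-fat replicate 1, at 8.20 against 7.20 to 7.29 on the others. That array was also the highest low-fat array for Ccl4 (7.86 against 7.36 to 7.45), Ccl3 (7.51 against 7.14 to 7.18) and Cxcl13. Cxcl12 (-0.12 ± 0.13), Cxcl14 (0.08 ± 0.09) and fractalkine, Cx3cl1 (0.02 ± 0.04), lay within their spread. The 9 receptors tested ran from -0.07 to 0.05, with Ccr2 at 0.03 ± 0.03, Cxcr4 at -0.01 ± 0.06 and Cx3cr1 at 0.05 ± 0.04. Over the 38 members the median difference was 0.05 against 0.00 over all genes, and 12 had an unadjusted p below 0.05, against 19.7% of all genes.

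Among the marker lists of other cell types, 1 mast cell and 1 dendritic cell gene passed on corn oil against low-fat, and none of the macrophage, neutrophil, mesothelial, T and NK or B cell genes tested did. Of the 20 macrophage marker symbols, Emr1 is an older name of the listed Adgre1. The other 19 had a probe, and 18 passed the filter in WAT. Of the 18, 14 had positive differences and 8 had an unadjusted p below 0.05, against 48.5% and 19.7% of all genes. Over the 19 that passed in either tissue, the mean per array was 8.89 to 9.12 in low-fat WAT, 9.17 to 9.56 on corn oil and 8.79 to 9.49 on EPA/DHA. Of these genes, Itgam, Msr1 and Itgax stayed below 7.3 on all arrays. Gpnmb, a gene of lipid-laden macrophages, read 8.58, 8.86, 9.13 and 9.14 on low-fat, and 9.97, 12.04, 10.74 and 11.31 on corn oil. Corn-oil replicates 2 and 4 were highest for Gpnmb, as for Ccl8, Ccl9 and Ccl6. Mast cell markers averaged 7.89 to 8.23 on low-fat and 7.66 to 7.87 on corn oil, and Mcpt4, a mast cell protease, fell by 0.53 ± 0.10 (limma adjusted p = 0.0276). Mesothelial markers averaged 7.88 to 8.19 on low-fat and 7.46 to 7.75 on corn oil, the diet on which Cxcl13 was also lower. Within the corn-oil group the order differed. Replicates 2 and 4 had the highest mesothelial means (7.725 and 7.747) and the lowest Cxcl13 (7.42 and 7.48). On EPA/DHA the mesothelial means (7.918, 7.961, 7.544 and 7.733) had the same order as Cxcl13 (8.56, 9.22, 7.88 and 8.11). On low-fat, replicate 1 was highest for both (8.189 and 9.51), while replicates 2 and 4 differed in order. The T and NK cell markers averaged 7.54 to 7.58 on low-fat and 7.53 to 7.70 on corn oil, and the B cell markers 7.3 to 7.72 and 7.24 to 7.40. The B cell mean rests on 2 genes that passed the filter in either tissue, of 7 listed. Low-fat replicate 1, with the highest B cell mean, was also the highest array for Cxcl13 and its receptor Cxcr5 (7.46). On EPA/DHA the order differed. There replicate 4 had the highest B cell mean (7.436) with Cxcl13 at 8.11, and replicate 2 the highest Cxcl13 (9.22) with a mean of 7.397. Cd3e, Cd4, Cd8a, Ms4a1 and Pax5 stayed below 7.3 on all arrays. Neutrophil markers averaged 7.25 to 7.44 on low-fat and 7.55 to 7.59 on corn oil, and the 4 eosinophil markers with a probe stayed below 7.3 on all arrays. Dendritic cell markers, a list that holds the member Ccl22, averaged 7.28 to 7.31 and 7.34 to 7.38, and among them Cd209a rose by 0.23 ± 0.05 (adjusted p = 0.0332). The part of these cell types in the chemokine differences was not tested.

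**Figure D2:**
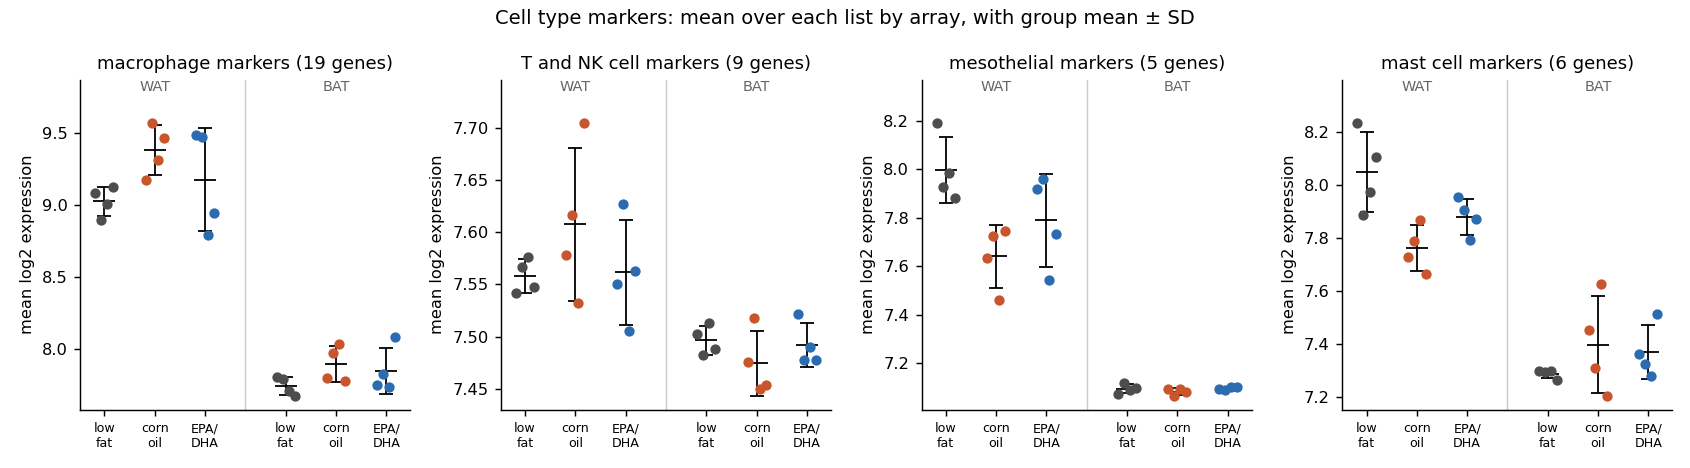
Mean log2 expression per array (vertical axis) over the macrophage, T and NK, mesothelial and mast cell marker genes that passed the filter, by tissue and diet; points are arrays, bars the group mean ± SD (n = 4). The macrophage mean lies at 9.17 to 9.56 on WAT corn-oil arrays against 8.89 to 9.12 on low-fat, and the WAT EPA/DHA arrays split into replicates 1 and 2 near the top and 3 and 4 below.

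The second comparison set WAT on the EPA/DHA HFD against WAT on the corn-oil HFD, at the same tissue and with the fat source changed. It shares its corn-oil arrays with the first comparison, so an array that is high or low there moves both. Of the 38 members tested 1 rose, Ccl27a, and no member fell, while 2.34% of all genes passed, 1.18% higher and 1.17% lower. Ccl27a read 8.90, 8.91, 8.74 and 8.83 on EPA/DHA, all above the highest corn-oil value of 8.68, and rose by 0.31 ± 0.06 (limma adjusted p = 0.0378). Its second probe gave 0.13 ± 0.03 (adjusted p = 0.0626). The call held without corn-oil replicate 4 (0.0284) and was lost without any other array: EPA/DHA replicate 1 (0.0825), 2 (0.0765), 3 (0.0521) or 4 (0.0871) and corn-oil replicate 1 (0.0887), 2 (0.0808) or 3 (0.0716).

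The monocyte-attracting ligands had lower means on EPA/DHA than on corn oil, without passing. Ccl8 read 9.46, 9.07, 8.30 and 8.91 on EPA/DHA, a difference of -1.16 ± 0.35 (limma adjusted p = 0.134), with replicate 1 inside the corn-oil range. Ccl7 read 8.96, 8.20, 7.93 and 7.93 (-1.05 ± 0.27, adjusted p = 0.0835), again with replicate 1 inside the corn-oil range. Without EPA/DHA replicate 1, Ccl7 passed, with a difference of -1.29 (adjusted p = 0.0385). Ccl2 read 7.57, 7.43, 7.24 and 7.23 (-0.27 ± 0.11, adjusted p = 0.295). Ccl12 did not follow: it read 7.97 on replicate 1 and 7.31 to 7.36 on the others (0.01 ± 0.13, adjusted p = 0.988).

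The Ccr1 ligands varied widely among the EPA/DHA arrays. Ccl9 read 11.15, 11.21, 10.22 and 10.37, and Ccl6 read 8.66, 8.46, 8.11 and 8.13, so replicates 1 and 2 lay within or just below the corn-oil range, and replicates 3 and 4 at the bottom of the low-fat range (Ccl6) or below it (Ccl9). Their differences from corn oil were -0.74 ± 0.25 (limma adjusted p = 0.17) and -0.39 ± 0.14 (adjusted p = 0.2). Macrophage markers had the same split: Gpnmb read 12.10, 11.87, 8.68 and 9.01. Trem2, a lipid receptor of macrophages, read 8.82, 9.01, 7.36 and 7.5. Other marker lists shared it, such as the fibroblast and progenitor mean (9.987, 9.807, 9.504 and 9.706). So did the mesothelial (7.918, 7.961, 7.544 and 7.733), neutrophil (7.866, 7.485, 7.339 and 7.375) and mast cell means. The adipocyte mean (11.699, 11.765, 11.916 and 11.946) and the endothelial mean went the other way. The T and NK, B and dendritic cell means did not split so. The part of these cell types in the spread of the chemokine genes was not tested. Ccl2, Ccl7 and the neutrophil attractant Cxcl1 (8.36, 8.15, 7.70 and 7.43) were likewise higher on EPA/DHA replicates 1 and 2 than on 3 and 4.

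Cxcl13 read 8.56, 9.22, 7.88 and 8.11 on EPA/DHA, above all corn-oil values, a difference of 0.91 ± 0.35 that did not pass (limma adjusted p = 0.243). Cxcl12 read 11.02, 10.75, 10.53 and 10.76 against 11.32, 11.16, 10.95 and 10.97 on corn oil (-0.34 ± 0.13, adjusted p = 0.23), and Ccl5 moved from 8.19 ± 0.32 to 7.76 ± 0.27 (-0.42 ± 0.18, adjusted p = 0.303). Ccl11 differed by -0.30 ± 0.14 (adjusted p = 0.349) and Cxcl9 by 0.07 ± 0.11 (adjusted p = 0.83). The 9 receptors tested ran from -0.07 to 0.05. Positive differences numbered 9 of 38, against 51.1% of all genes, with a median of -0.04 over the members and 0.00 over all genes. An unadjusted p below 0.05 was found for 9 members against 17.6% of all genes. All 7 of the other inflammatory CC ligands tested (Ccl3, Ccl4, Ccl5, Ccl6, Ccl9, Ccl11 and Ccl24) had negative differences, and none passed.

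**Figure D3:**
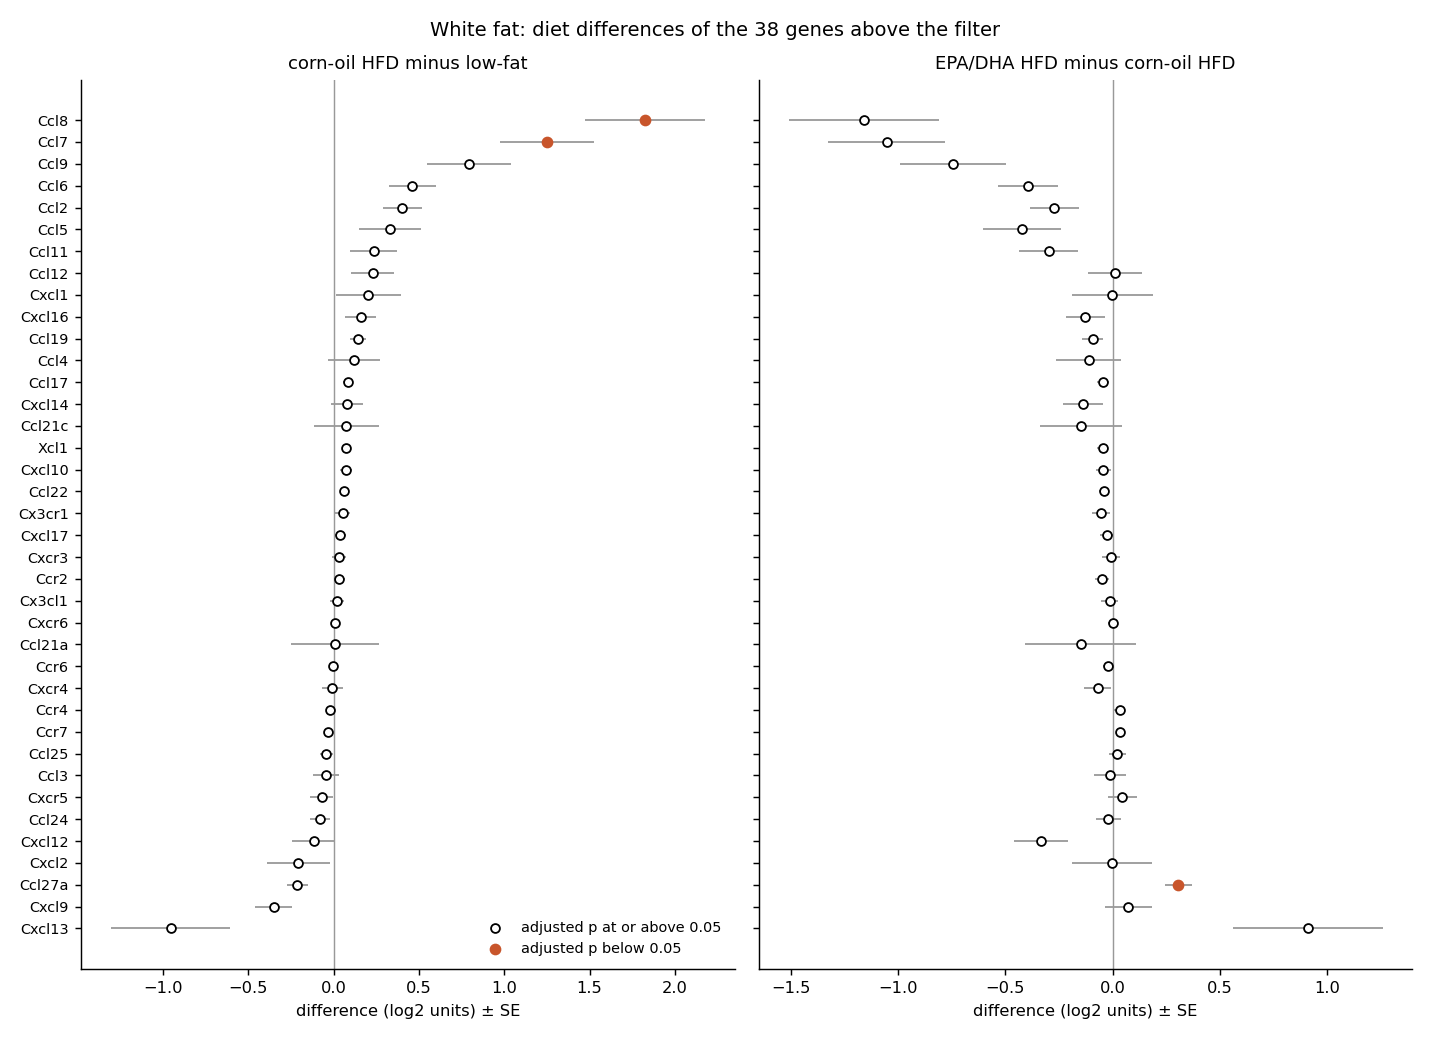
Log2 differences ± SE (horizontal axes) of the 38 chemokine and receptor genes that passed the filter in WAT, corn oil minus low-fat on the left and EPA/DHA minus corn oil on the right; filled points have an adjusted p below 0.05. Ccl8 (1.83) and Ccl7 (1.25) are filled on the left and Ccl27a (0.31) on the right, and the corn-oil arrays enter both panels with opposite sign.

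Against the low-fat diet, WAT on EPA/DHA showed no member called among 38, with limma calling 4 genes in all (0.03%, with 0.015% higher and 0.015% lower). An unadjusted p below 0.05 was found for 2 members, against 9.06% of all genes. Cxcl12, which retains leukocytes and progenitors through Cxcr4, read 11.38, 11.10, 10.99 and 11.40 on low-fat and was lower on EPA/DHA by 0.45 ± 0.13 on average (limma adjusted p = 0.404), with overlap at EPA/DHA replicate 1. Its next probes by brightness gave -0.12 ± 0.07 and -0.01 ± 0.11. Cxcl9 differed by -0.28 ± 0.11 (adjusted p = 0.579). Ccl8 stood 0.67 ± 0.35 above low-fat (adjusted p = 0.721), Ccl7 0.20 ± 0.27 (adjusted p = 0.918), Ccl2 0.13 ± 0.11 (adjusted p = 0.863) and Ccl9 0.05 ± 0.25 (adjusted p = 0.983). The median over the members was 0.01 against 0.00 over all genes.

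In BAT no chemokine or receptor was called in any diet comparison, where limma called 0%, 0% and 0.00746% of 13400 genes for corn oil against low-fat, EPA/DHA against corn oil and EPA/DHA against low-fat. In each of the 3 comparisons, 3 of 34 members had an unadjusted p below 0.05, against 9.10%, 4.99% and 4.77% of all genes. Ccl8 read 7.25, 7.41, 7.14 and 7.13 in low-fat BAT, 7.13, 7.27, 7.40 and 7.21 on corn oil and 7.26, 7.47, 7.13 and 8.04 on EPA/DHA. These values overlap, and corn oil differed from low-fat by 0.02 ± 0.16 (adjusted p = 0.983). Ccl7 ran from 7.20 to 7.74 over the 12 BAT arrays, highest on EPA/DHA replicate 4, the array that was also highest for Ccl8, and differed by 0.07 ± 0.08 on corn oil (adjusted p = 0.874). Ccl2 ran from 7.01 to 7.31, with the same array highest. That array also had the highest BAT means of macrophage (8.08), neutrophil (7.86), fibroblast and progenitor (8.89) and skeletal muscle (12.285) markers, against at most 8.03, 7.69, 8.83 and 12.06 on the others. The part of these markers in its chemokine values was not tested.

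The smallest p in BAT belonged to Ccl11, the eosinophil attractant. It read 8.79, 8.38, 8.69 and 8.79 on low-fat, 8.99, 8.97, 8.99 and 8.83 on corn oil and 8.95, 9.01, 8.93 and 8.86 on EPA/DHA, so both high-fat groups lay above all low-fat values. The differences were 0.28 ± 0.08 (limma adjusted p = 0.382) and 0.28 ± 0.08 (adjusted p = 0.812), and the second probe turned the first of these to -0.07. Cxcl9 read 9.22, 8.72, 9.07 and 9.26 on low-fat, 9.30, 9.59, 9.60 and 9.15 on corn oil and 8.87, 9.14, 9.12 and 8.79 on EPA/DHA. It was 0.34 ± 0.14 above low-fat on corn oil (adjusted p = 0.574) and differed by -0.43 ± 0.14 between EPA/DHA and corn oil (adjusted p = 0.999). BAT low-fat replicate 2 was the lowest array for both Ccl11 and Cxcl9, and its mean correlation with the other BAT arrays was 0.9688, against 0.9834 or more for each of those. Without it Cxcl9 differed by 0.225 on corn oil, and Ccl11 by 0.191 on corn oil and 0.185 on EPA/DHA. Cxcl13 was 0.21 ± 0.08 above low-fat on EPA/DHA (adjusted p = 0.922), from 7.08 ± 0.02 to 7.29 ± 0.18, and by 0.138 without EPA/DHA replicate 4. Ccl25 differed by -0.15 ± 0.07 on corn oil (adjusted p = 0.61), or -0.09 without corn-oil replicate 3, and Ccl6 by -0.12 ± 0.05 between EPA/DHA and corn oil (adjusted p = 0.999). The 8 receptors tested in BAT differed by 0.00 to 0.04 between corn oil and low-fat.

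Whether the diet effect differed between the tissues was tested directly, as the WAT effect minus the BAT effect over all 24 arrays and 39 members. For corn oil against low-fat, Ccl8 was called, at 1.80 ± 0.40 (limma adjusted p = 0.0494), where 0.652% of 14262 genes passed, 0.435% higher and 0.217% lower. It was the only one of the 39 members called in the 3 tests of this kind. Its call lies at the threshold. It held without WAT low-fat replicate 2 (0.0416) or WAT corn-oil replicate 1 (0.0142), and was lost without any other 1 of the 16 arrays of the 4 groups, at an adjusted p between 0.0587 and 0.106. Ccl7 gave 1.18 ± 0.30 (adjusted p = 0.0853), Cxcl9 -0.69 ± 0.19 (adjusted p = 0.11), Cxcl13 -1.05 ± 0.37 (adjusted p = 0.257) and Ccl2 0.36 ± 0.13 (adjusted p = 0.271). Over the 39 members 7 had an unadjusted p below 0.05, against 13.1% of all genes. For EPA/DHA against corn oil 0.252% of genes (0.0701% higher, 0.182% lower) and no member passed. There Ccl7 stood at -1.14 ± 0.30 (adjusted p = 0.179) and Ccl8 at -1.38 ± 0.40 (adjusted p = 0.281), and 5 members had an unadjusted p below 0.05 against 8.45% of all genes. For EPA/DHA against low-fat 0.00701% of genes and no member passed, 1 member (Cxcl12, -0.42 ± 0.16, adjusted p = 0.676) having an unadjusted p below 0.05 against 6.44% of all genes.

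Between the tissues 14, 19 and 16 of the 39 members were called on the low-fat, corn-oil and EPA/DHA diets, totals near the shares of all genes. By direction, the members called leaned further towards WAT than all genes called did. That lean was not tested. On the low-fat diet 12 of 39 members were higher in WAT and 2 in BAT, on corn oil 16 and 3, and on EPA/DHA 14 and 2. The shares of all 14262 genes called were 43.7%, 41.1% and 37.7%, with 23.3%, 22.8% and 20.1% higher in WAT and 20.4%, 18.3% and 17.6% higher in BAT. Called higher in WAT on all 3 diets were 11 members (Ccl6, Ccl7, Ccl8, Ccl9, Ccl11, Ccl24, Cxcl9, Cxcl12, Cxcl16, Cxcr3 and Cxcr4), and higher in BAT on all 3 were Ccl25 and Ccl27a. In all, 21 members were called on at least 1 diet, 18 on none, and none in opposite directions on different diets. How many of all genes had each of these patterns over the 3 diets was not counted. These counts therefore cannot be set against a share of all genes. The median difference over the 39 members was 0.05, 0.08 and 0.08 on the low-fat, corn-oil and EPA/DHA diets, against -0.01, 0.00 and 0.00 over all genes.

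Ccl9 had the largest difference among the members on each diet. It ran from 10.22 to 11.89 over the 12 WAT arrays and from 7.72 to 8.59 over the 12 BAT arrays, a gap of 2.85 ± 0.22 on low-fat (limma adjusted p = 2.25e-09), 3.28 ± 0.22 on corn oil and 2.63 ± 0.22 on EPA/DHA. Ccl11 ran from 10.34 to 11.13 in WAT and from 8.38 to 9.01 in BAT (1.99 ± 0.12 on low-fat, adjusted p = 3.35e-11), and its second probe gave 0.34 ± 0.10. Cxcl9 ran from 10.16 to 10.91 and from 8.72 to 9.60 (1.61 ± 0.13 on low-fat, adjusted p = 3.66e-09). Ccl6 ran from 8.11 to 8.99 and from 7.09 to 7.34 (1.04 ± 0.11 on low-fat, adjusted p = 1.09e-07). For these 4 genes no BAT array reached the lowest WAT array.

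Among the monocyte-attracting ligands, a change of the tissue gap with diet was called for Ccl8 alone, from low-fat to corn oil. Ccl8 was higher in WAT by 1.04 ± 0.29 on low-fat (limma adjusted p = 0.00634), by 2.84 ± 0.29 on corn oil (adjusted p = 7.96e-08) and by 1.46 ± 0.29 on EPA/DHA (adjusted p = 3.91e-04). Ccl7 was higher by 0.69 ± 0.21, 1.88 ± 0.21 and 0.74 ± 0.21. Ccl2 was called on corn oil alone, at 0.49 ± 0.09 (adjusted p = 2.77e-04), and Ccl12 on no diet. Cxcl13 was called on low-fat (1.41 ± 0.26) and EPA/DHA (1.15 ± 0.26) and not on corn oil, where its WAT values were lowest. Ccl5 was called on corn oil (0.78 ± 0.16) and EPA/DHA (0.43 ± 0.16).

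Cxcl12 ran from 10.53 to 11.40 in WAT and from 10.27 to 10.67 in BAT, and the gap was 0.76 ± 0.12 on low-fat, 0.65 ± 0.12 on corn oil and 0.34 ± 0.12 on EPA/DHA (limma adjusted p = 0.0307 for the last). Its receptor Cxcr4 was higher in WAT by 0.27 ± 0.05, 0.25 ± 0.05 and 0.23 ± 0.05. Cxcr3, the receptor for Cxcl9, was higher by 0.12 ± 0.04, 0.15 ± 0.04 and 0.12 ± 0.04. Both receptors lie close to the floor of the arrays. Cxcl16, a membrane-bound ligand of Cxcr6, ran from 7.58 to 8.06 in WAT and from 7.3 to 7.54 in BAT, and Ccl24, a second eosinophil attractant, from 7.52 to 7.83 and from 7.08 to 7.37. Neither gene had a BAT array within its WAT range.

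In BAT the higher members were Ccl27a and Ccl25, a ligand of Ccr9 known from thymus and gut. Ccl27a ran from 9.47 to 10.07 in BAT and from 8.39 to 8.91 in WAT, a difference of -1.14 ± 0.10 on low-fat (limma adjusted p = 1.32e-08), -1.17 ± 0.10 on corn oil and -0.96 ± 0.10 on EPA/DHA. Its second probe was also lower in WAT on low-fat, by 0.67 on average (-0.67 ± 0.06, adjusted p = 3.96e-08). Ccl25 ran from 7.68 to 8.10 in BAT and from 7.47 to 7.65 in WAT (-0.42 ± 0.06 on low-fat, adjusted p = 4.32e-06), and its other probes gave -0.31 ± 0.03 and -0.13 ± 0.03. Cx3cl1 was called on corn oil alone (-0.18 ± 0.07, adjusted p = 0.0486). This call was lost without BAT corn-oil replicate 1 (-0.12, adjusted p = 0.194) or 3 (0.118), without WAT corn-oil replicate 1 (0.0653), 2 (0.0988), 3 (0.0782) or 4 (0.092), without the filter (0.0696) and with the replicate number as a block (0.0666). Cxcl14 was not called on any diet and ran from 7.73 to 8.27 in WAT and from 7.88 to 8.45 in BAT. Ccl21a and Ccl21c, near-identical genes whose probes may share signal, were not called either.

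Some marker lists of blood-derived and stromal cells differed between the tissues beside these genes, and others overlapped. The macrophage mean was 8.79 to 9.56 in WAT and 7.68 to 8.08 in BAT, the fibroblast and adipocyte progenitor mean 9.50 to 9.99 and 8.20 to 8.89, and the mesothelial mean 7.46 to 8.19 and 7.06 to 7.12. The mast cell (7.665 to 8.233 and 7.202 to 7.624), dendritic cell and lymphatic means were also higher in WAT without overlap. So were the endothelial mean (9.134 to 9.43 and 8.656 to 9.013) and the adipocyte mean (11.675 to 11.946 and 10.543 to 11.076). The T and NK cell mean overlapped, at 7.51 to 7.70 in WAT and 7.45 to 7.52 in BAT. So did the neutrophil mean (7.253 to 7.866 and 7.164 to 7.859) and the eosinophil mean (7.105 to 7.196 and 7.08 to 7.184). The B cell mean also overlapped (7.173 to 7.716 and 7.046 to 7.192). The part of these cell types in the tissue differences of the chemokine genes was not tested.

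**Figure D4:**
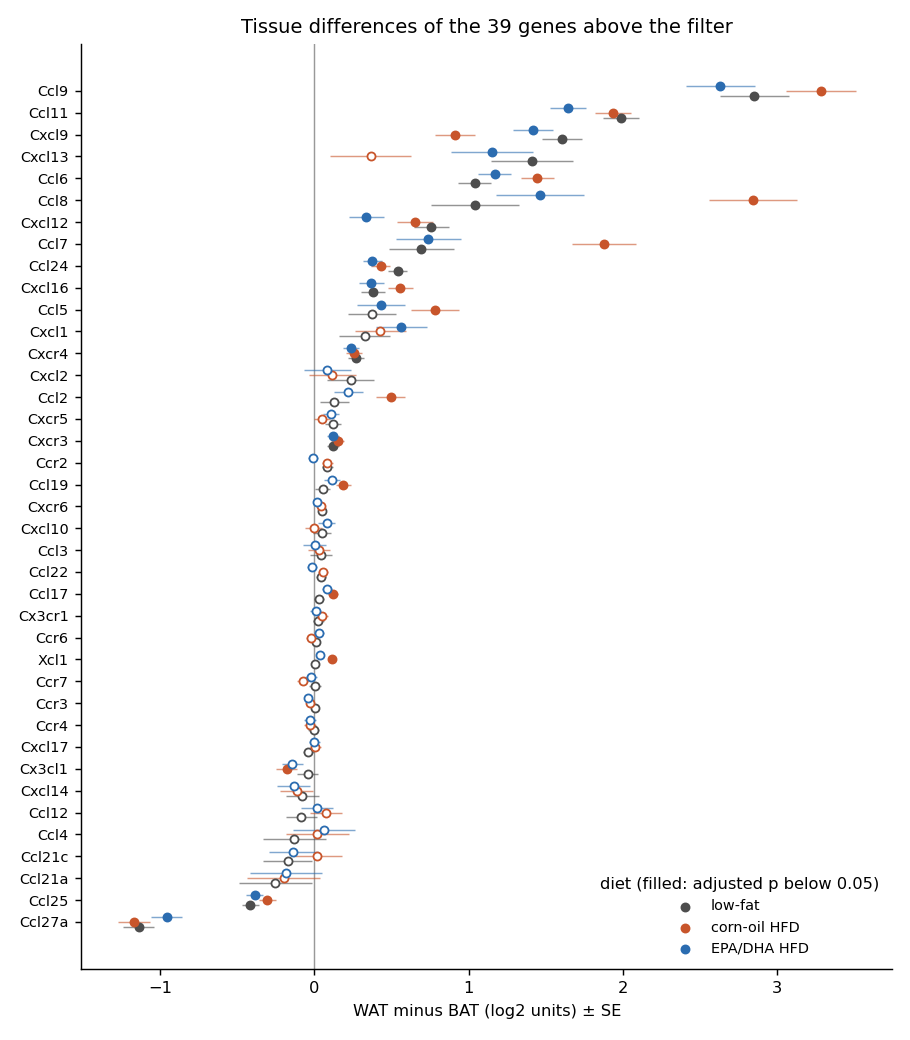
WAT minus BAT log2 differences ± SE (horizontal axis) of the 39 chemokine and receptor genes that passed the filter in either tissue, 1 point per diet; filled points have an adjusted p below 0.05. Ccl9, Ccl11 and Cxcl9 lie farthest to the right on low-fat (2.85, 1.99 and 1.61), Ccl27a farthest to the left (-1.14), and the corn-oil points of Ccl8 (2.84) and Ccl7 (1.88) stand apart from their other diets.

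Of the genes that work with the chemokine system without matching the symbol rule, 1 was called in a WAT diet comparison. The list of atypical receptors and related genes had 12 symbols, some of them older names of genes also listed. Of these symbols 9 had a probe, and none was called in any diet comparison of either tissue. Ackr4, which scavenges Ccl19, Ccl21 and Ccl25, read 9.08 to 9.28 in low-fat WAT, 8.81 to 9.12 on corn oil (-0.24 ± 0.09, limma adjusted p = 0.228) and 9.08 to 9.48 on EPA/DHA. In BAT it read 9.63 to 9.93 on low-fat, 9.36 to 9.72 on corn oil (-0.33 ± 0.08, adjusted p = 0.325) and 9.87 to 9.95 on EPA/DHA (0.38 ± 0.08 against corn oil, adjusted p = 0.581). Between tissues, Pf4, a platelet and macrophage CXC chemokine whose symbol the rule does not match, was higher in WAT by 2.0 ± 0.18 on low-fat, and Ackr4 was higher in BAT (-0.62 ± 0.09). Of 31 symbols of chemokine receptor signalling genes, older names included, 25 were tested in WAT, and none was called on corn oil against low-fat. Among them 1, Elmo1, which links receptors to Rac activation, fell on EPA/DHA against corn oil by 0.21 on average (-0.21 ± 0.04, limma adjusted p = 0.0283). Of 21 cytokines, receptors and transcription factors that induce chemokines, 17 were tested in WAT and none was called, and Tnf, Il6 and Ifng stayed below 7.3 on all 24 arrays.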

How the data were processed

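Each of the 24 arrays measured RNA of 1 tissue of 1 mouse. The deposited log2 expression values were made with lumi 2.18.0, per the submitters' processing notes. Their near-identical distributions show quantile normalisation over all arrays; whether they are plain log2 or variance-stabilised is not given in the sources used here. Symbols came from the platform annotation and were checked against RefSeq GRCm38.p6, which matched 34818 of 45281 probes and renamed 10. The values were used as deposited, in limma 3.58.1 under R 4.3.3, with 1 fit per tissue for diets and 1 fit over both tissues for tissue differences, after the 40th percentile filter (7.107 in WAT, 7.108 in BAT). P-values were adjusted over all probes kept, at a threshold of 0.05, and the shares of all genes count 1 probe per gene. The fits were tested on simulated data. The number of arrays limits the precision.

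The genes and lists were chosen with earlier results of these data known. Named were all members called, the 5 with the smallest p where fewer than 5 were called, the 5 largest called tissue differences each way, the 10 highest means per tissue, and a fixed set (Ccl2, Ccl5, Ccl7, Ccl8, Ccl11, Ccl12, Cxcl12, Cxcl13, Cxcl14, Cx3cl1, Ccr2, Cxcr4, Cx3cr1). Further members, such as Ccl3, Cxcl1 and Cxcl2, were chosen after their values were seen. Alternatives changed the filter, centring, prior, array weights, probe, replicate block, arrays left out and arrays in the fit. The TATA box and the fit without arrays high in Ucp1 were added after seeing the data.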

Additional observations from a re-analysis of the deposited data

Results flagged for a closer look

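In 144 groups of 4 arrays, 24 named members were screened for an array standing far from the other 3 relative to the group's range. The screen marked 11, where chance alone marks about 1 in 20 groups (7.2 here). Ccl12 read 7.65 on WAT corn-oil replicate 1 against 7.41 to 7.45 on the others, and 7.97 on WAT EPA/DHA replicate 1 against 7.31 to 7.36. Ccl4 read 7.86 on WAT low-fat replicate 1 against 7.36 to 7.45. On WAT corn-oil replicate 1, Ccr6 read 7.13 against 7.18 and Cxcl10 7.19 against 7.26 to 7.27. Ccl24 read 7.68 on WAT EPA/DHA replicate 2 against 7.60 to 7.61, and Ccl25 read 7.52 on WAT low-fat replicate 4 against 7.62 to 7.63.

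In BAT, Ccl4 read 7.99 on corn-oil replicate 4 against 7.49 to 7.51, and Ccl11 read 8.83 on the same array against 8.97 to 8.99. Ccl2 read 7.08 on BAT corn-oil replicate 3 against 7.17 to 7.18, and Ccl27a 9.47 on BAT EPA/DHA replicate 3 against 9.90 to 9.94. The effect of corn oil against low-fat on Ccl8 differed between the tissues by 1.80 ± 0.40 (limma adjusted p = 0.0494), with all 4 WAT corn-oil arrays above all WAT low-fat arrays and overlapping groups in BAT.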

How the results depend on the processing

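The counts of members called in WAT rest on few genes near the threshold. How many of all genes each alternative called was not counted, so these counts cannot be set against the shares given above. For corn oil against low-fat, 2 members became 1 without a filter, 1 with a trended and robust prior, 4 with one fit over all 24 arrays and 0 without the arrays high in Ucp1, and 0 to 2 with 1 array left out. The 24-array fit added Ccl2 (adjusted p = 0.0219) and Ccl6 (0.0213). For EPA/DHA against corn oil, 1 became 0 without a filter, with the trended prior, with the second-brightest probe and without the arrays high in Ucp1, 2 in the 24-array fit (Ccl7 at 0.00897 and Ccl8 at 0.0364, with Ccl27a lost at 0.162), and 0 to 1 with 1 array left out. For the tissue difference in the corn-oil effect, 1 became 0 without a filter, with the trended prior, with array weights and with the replicate block, and 0 to 1 with 1 array left out. For that in the EPA/DHA against corn-oil effect, 0 stayed between 0 and 1. The direction turned for Ccl11 in BAT on corn oil (-0.071, second-brightest probe) and for Cxcl10 in BAT between EPA/DHA and corn oil (0.014, second-brightest probe). The cause of these changes was not tested. Equal replicate numbers were not taken to pair the arrays, since not every pair correlated above 0.1. The correlations ran from -0.358 to 0.546; replicate 1 in WAT (0.445 to 0.546) and replicate 4 in BAT (0.358 to 0.436) were positive in all 3 diet comparisons. With the replicate block 2 members passed in WAT on corn oil, Ccl8 (0.0459) and Ccl27a (-0.21, 0.0425), while Ccl7 did not (0.0596). The counts of the other comparisons stayed within 1.5 times under the alternatives run. Of the 18 receptors, 17 never exceeded 7.5, close to the floor of the arrays.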
